A study of Mus musculus with 3 samples.

Results

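Frame-keeping cassette exons are exons that can be left out of an mRNA without moving its reading frame, because their length is divisible by 3. In the hearts of Rbm20 knock-in mice, 784 candidates for such exons, picked by length, place in the gene and read counts, were studied in 579 genes, out of 469293 exonic parts in the deposited splicing table. An exonic part is a stretch of a gene that no annotated exon boundary cuts. Members were parts of at least 28 and under 1000 bases that touched no other part of their gene and were neither its first nor its last part, that belonged to a single gene and had at least 50 reads in each library, and whose percentage spliced in (PSI) in the wild-type heart lay between 10% and 90%. Ttn was left out. The wild-type PSI and the read depth thus chose the members, and differences from wild-type are given below as a description, with no test.

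The tissue was whole heart at 12 weeks of age from homozygote, heterozygote and wild-type mice. The homozygote and the heterozygote carried the Rbm20 I538T allele, a single amino-acid change introduced with CRISPR/Cas9 into C57BL/6 zygotes, and the founders were crossed with C57BL/6J mice; the wild-type carried none. Each genotype had 1 library (SMART-seq v4 cDNA with Nextera XT), called representative of its group in the labels, which do not state whether it came from 1 heart or several. A legend in the study speaks of PSI averaged over mice of a genotype, while the deposited PSI follows from a single set of whole-number counts per genotype, so each PSI may stand for 1 animal or for a pool. No difference between genotypes therefore had a replicate check, and a difference between 2 libraries cannot be told apart from a difference between the animals behind them.

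RBM20 is an RNA-binding protein of striated muscle that binds UCUU-rich stretches in introns beside its target exons and mostly represses their inclusion; titin is its best known target. In the heart it acts on genes of the sarcomere, the Z-disc and calcium handling. A cassette exon is included or skipped as a unit. When its length keeps the frame, both mRNAs can be translated to their common end, and the proteins differ by an inserted or missing stretch of amino acids. PSI is the share of transcripts that include the exon, here estimated from inclusion reads, which overlap the exon, and exclusion reads, which are junction reads that skip it, each divided by the number of positions at which such a read can start.

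The table held 157990953 inclusion reads in the homozygote, 157178099 in the heterozygote and 149633524 in the wild-type. A member had a median of 163 reads in the homozygote, 159.5 in the heterozygote and 159.5 in the wild-type, with a range from 50 to 201512 over the 3 libraries. Rbm20 itself was at 40.6, 36 and 37.2 CPM (inclusion reads of the gene's parts per 1000000 of the library) in the homozygote, the heterozygote and the wild-type. The allele changes an amino acid, so this level does not check the labels. The 7 cardiomyocyte markers measured summed to 62765, 64712 and 57666 CPM, while skeletal-muscle markers were at 2796, 1733 and 1724, fibroblast markers at 1055, 971 and 1055, endothelial markers at 242, 253 and 240, smooth-muscle markers at 103.3, 144 and 64.4, immune markers at 34.8, 48 and 62 and small-intestine markers at 26, 57.3 and 91.4 CPM. Within the skeletal-muscle sum, Acta1 was at 1249, 181 and 145 CPM and Ckm at 1546, 1551 and 1578. Tnnt3 was at 0.658, 0.261 and 0.581 CPM, and Myh1, Myh2 and Myh4 were lower still. The higher sum in the homozygote thus lay in Acta1. Within the small-intestine sum, Lgals4 was at 25.3, 56.7 and 51.5 CPM. The other 9 small-intestine markers summed to 0.677, 0.604 and 39.9 CPM, so they were highest in the wild-type library, whose PSI chose the members. The part of such transcripts in the wild-type PSI was not tested. Blood markers (Hba-a1, Hbb-bs and Alas2) summed to 62978 CPM in the homozygote, 18956 in the heterozygote and 50557 in the wild-type. Intervals of a PSI are exact 95% counting intervals and those of a difference combine them by Newcombe's method; reads were PCR products without molecular identifiers, so they cover counting error only. The interval of a homozygote minus wild-type difference had a median width of 18.7 points.

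Members were short and mostly coding. Their lengths ran from 30 to 993 bases with a median of 108, that is from 10 to 331 codons. In GENCODE M21, 573 of them were coding throughout, 69 were partly coding, 131 were non-coding and 11 had no exact exon. A transcript that held the exon internally and one that joined its neighbours directly were both annotated for 388 members. A further 104 were only a first or last exon in the transcripts that hold them, so no transcript there shows them as cassettes, and the non-coding members have no frame to keep. The reading frame could be followed through 570 members, and none of these held an in-frame stop codon. Of the frame-shifting exons chosen by the same rule, 1 of 431 held one. The frame was read from annotated coding segments, which as a rule hold no internal stop. These counts therefore follow from the annotation and say nothing further about the exons. The frame entered at the first base of a codon in 289 members, and at another base in the remainder. A single member was present in 468 genes, 2 in 75 genes and 3 or more in 36 genes, with up to 14 in Lrrfip2.

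At the edges of the rule, the lowest and highest wild-type PSI among members were 10.03% and 89.94%, while the nearest exons outside the range were at 9.90% and 90.01%. In all, 1157 frame-keeping exons of the same shape and depth were below the range and 12300 were above it. At the depth limit, 46 members had 50 to 54 reads in their shallowest library, and 47 exons that met every other condition had 45 to 49.

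Coding exons without a copy in another gene, from genes described below, are printed here as examples, 5′ to 3′ in the direction of transcription, from the GENCODE M21 transcripts on GRCm38, so that the inserted stretches can be read; they are not the largest differences of all members, and the second Trdn exon is under 20 points in every comparison. Capitals mark TCTT, the DNA form of the RBM20 core motif, searched in the transcribed strand only with overlapping matches counted. Cobl was the only exon of this set to hold it.

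Arhgap10 exon of 66 bases, chr8:77382725-77382790, minus strand: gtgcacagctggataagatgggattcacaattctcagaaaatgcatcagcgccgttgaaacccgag
Os9 exon of 165 bases, chr10:127096915-127097079, minus strand: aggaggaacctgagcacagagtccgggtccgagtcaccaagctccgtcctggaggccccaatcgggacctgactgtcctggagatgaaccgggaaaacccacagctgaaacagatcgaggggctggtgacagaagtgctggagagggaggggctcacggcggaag
Tmpo exon of 96 bases, chr10:91153085-91153180, minus strand: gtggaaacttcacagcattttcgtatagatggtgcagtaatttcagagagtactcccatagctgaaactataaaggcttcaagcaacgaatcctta
Ehbp1 exon of 105 bases, chr11:22151788-22151892, minus strand: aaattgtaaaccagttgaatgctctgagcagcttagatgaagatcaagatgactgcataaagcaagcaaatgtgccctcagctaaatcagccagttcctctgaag
Rapgef1 exon of 114 bases, chr2:29679737-29679850, plus strand: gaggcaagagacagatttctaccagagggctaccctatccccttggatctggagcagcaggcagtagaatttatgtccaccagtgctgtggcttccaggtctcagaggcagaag
Map4k3 exon of 63 bases, chr17:80629286-80629348, minus strand: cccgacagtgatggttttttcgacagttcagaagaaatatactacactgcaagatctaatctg
Kif1b exon of 42 bases, chr4:149261160-149261201, minus strand: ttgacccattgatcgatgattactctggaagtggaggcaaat
Trdn exon of 30 bases, chr10:33433701-33433730, plus strand: agccacaactaaaaaacgaagagaagtcaa
Trdn exon of 30 bases, chr10:33437718-33437747, plus strand: agccacaagtgaaaaaggaagcaaaactag
Cobl exon of 45 bases, chr11:12373329-12373373, minus strand: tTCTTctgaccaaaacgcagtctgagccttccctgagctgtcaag

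No match says only that these letters are not in the exon; the flanking introns were not analysed here. TCTT was present in 41.3% of the members with sequence and in 42.1% of the frame-shifting exons. Among exons of both kinds within 20% of its length, 17.3% of 133 held the motif for the Cobl exon, against 26.5% of 260 for the Arhgap10 exon and 48.5% of 367 for the Os9 exon, the lowest and highest shares for the set being 10.5% for Kif1b and that of Os9.

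The comparison of homozygote and wild-type asked how far inclusion of these exons differed in hearts with 2 copies of the allele. Of the 784 members, 44 were at least 20 points higher in the homozygote and 18 were at least 20 points lower, and in 59 of these 62 the counting interval of the difference left out 0. Over all exonic parts with 50 reads in each library, 0.503% were that much higher and 0.361% that much lower; over the 9143 such parts with wild-type PSI from 10% to 90%, members included, 6.55% were higher and 3.01% lower. The members' shares therefore lay near those of the parts chosen by the same PSI range. The median absolute difference was 6.46 points in members and 6.21 points in all parts of that PSI range, and the median signed difference of members was 1.16 points. Choosing the exons by the heterozygote's PSI in place of the wild-type's gave 25 higher and 20 lower.

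In the heterozygote, with a single copy of the allele, 68 members were at least 20 points higher than in the wild-type and 31 were lower, with an interval without 0 in 97. Against this, 0.506% and 0.341% of all parts of that depth were higher and lower, and 7.16% and 2.72% of those with wild-type PSI from 10% to 90%. The median absolute difference was 6.47 points. Taken as the plain share of inclusion reads, without division by read positions, the counts were 62 higher and 16 lower, and in exons chosen by the heterozygote's PSI they were 36 and 44. The heterozygote thus had more members past 20 points than the homozygote. This excess was not seen among members skipped without their neighbours, a class defined below, with 16 past 20 points in each mutant. Those of the class that also had no near-identical copy in another gene numbered 15 in the homozygote and 14 in the heterozygote. Both comparisons share the wild-type library; 27 members were higher by 20 points in both mutants and 6 were lower in both.

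The contrast of homozygote and heterozygote was not used to choose members, apart from depth. It gave 46 members higher in the homozygote and 46 lower, with an interval without 0 in all 92, and a median absolute difference of 5.83 points. The background was 0.436% higher and 0.439% lower over all parts of that depth, and 4.2% higher and 4.89% lower over those with wild-type PSI from 10% to 90%. As plain shares of inclusion reads the counts were 28 higher and 56 lower, and in exons chosen by the heterozygote's PSI 55 and 26. In 140 members all 3 libraries lay within 5 points of each other.

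**Figure D1:**
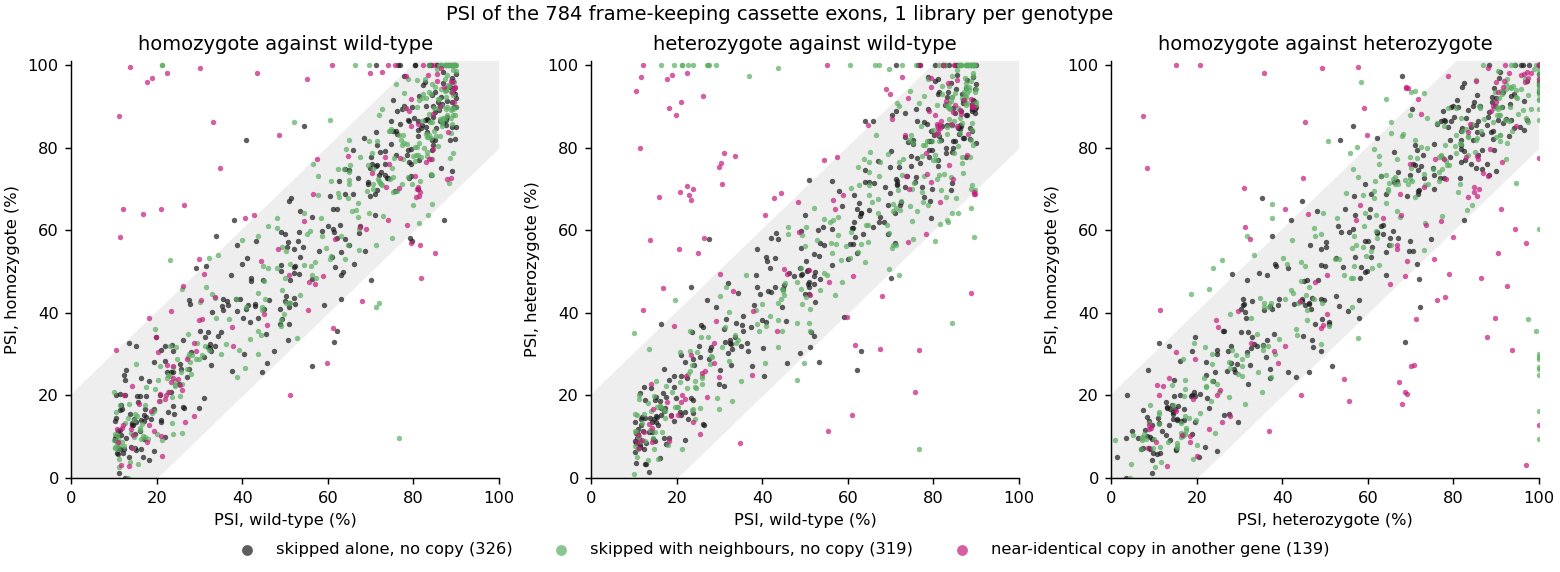
PSI of each of the 784 member exons in 1 library (vertical axis, percent) against another (horizontal axis, percent), for homozygote against wild-type, heterozygote against wild-type and homozygote against heterozygote; the grey band marks differences under 20 points. Most points outside the band are exons with a near-identical copy in another gene (139 exons) or exons skipped together with neighbours (319), and fewer are among the 326 exons without a copy and skipped alone.

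Frame-shifting exons chosen by the same rule, 817 in number, served for comparison. Past 20 points between homozygote and wild-type were 7.91% of the members, against 13.2% of the frame-shifting exons. Between heterozygote and wild-type the shares were 12.6% and 13.3%, and between homozygote and heterozygote 11.7% and 12.4%. Median absolute differences were 6.46 points in members, against 6.80 points in frame-shifting exons, for homozygote against wild-type. With 1 library per genotype these shares are descriptions of the 3 libraries.

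The share past 20 points varied with properties the rule had not used. In sequence, 139 members had a near-identical copy, at least 90% identical over at least 80% of the exon, in another gene. How reads were placed between copies was not tested, and the PSI of such exons is given as uncertain. The 139 exons made up 36 of the 62 members past 20 points between homozygote and wild-type, 52 of 99 between heterozygote and wild-type and 47 of 92 between homozygote and heterozygote. The shares past 20 points in these 3 comparisons were 25.9%, 37.4% and 33.8% with a copy, against 4.03%, 7.29% and 6.98% without one. Frame-shifting exons with a copy had 33.7%, 34.1% and 26.9%, and those without one 6.24%, 6.24% and 7.39%. The 14 members without sequence could not be searched and count as having no copy.

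Members also varied in how many adjoining exons had like exclusion counts. In 353 members both neighbouring exons had less than 50% of the member's exclusion reads over the 3 libraries, so the member was classed as skipped alone. In 277 members a run of 1 to 4 neighbours had that share or more, and in 154 members 5 or more did. The classes rest on counts, and whether the skipping reads themselves were the same was not examined. Past 20 points between heterozygote and wild-type were 4.53% of those skipped alone, 9.75% of those skipped with 1 to 4 neighbours and 36.4% of those skipped with 5 or more. Exons of 1 run may share skipping reads, so they are not taken as separate observations. Members without a copy and skipped alone numbered 326, and 8 of them were higher and 7 lower by 20 points for homozygote against wild-type. The corresponding counts were 9 higher and 5 lower for heterozygote against wild-type, and 10 higher and 5 lower for homozygote against heterozygote.

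**Figure D2:**
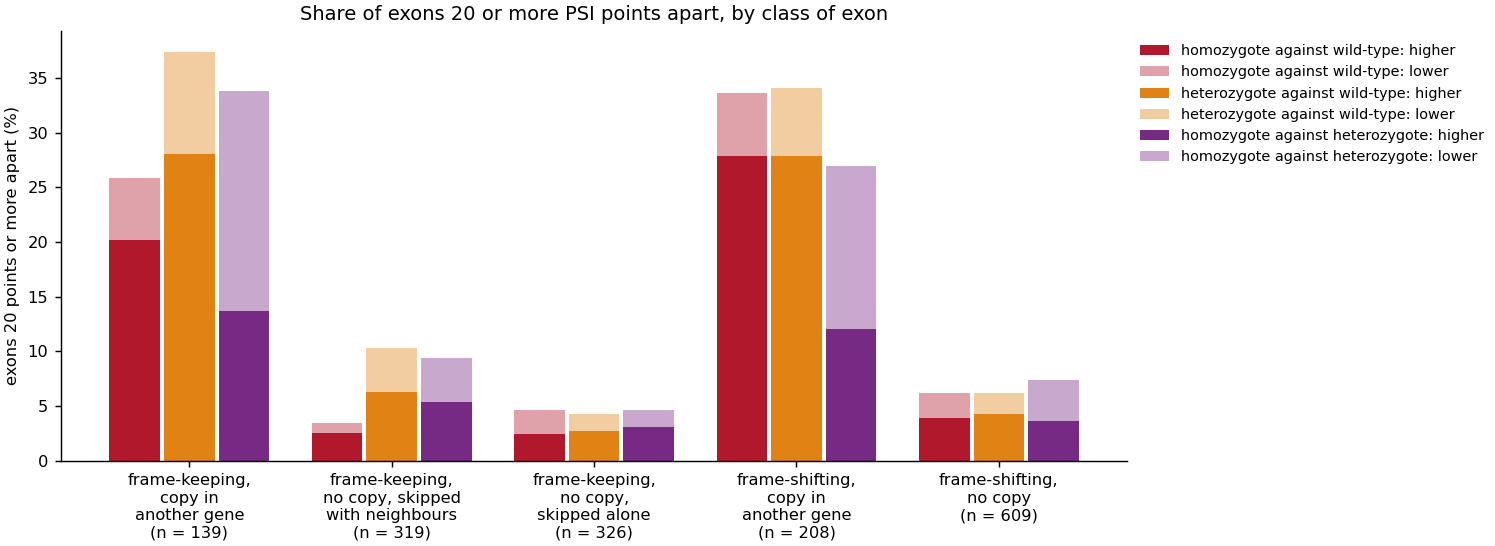
Percentage of exons at least 20 PSI points apart (vertical axis, from 0), for each of the 3 comparisons, in frame-keeping exons with a copy in another gene, skipped with neighbours or skipped alone, and in frame-shifting exons with and without a copy; the dark part of a bar is the exons higher in the first-named genotype, the pale part those lower. Shares with a copy lie between 25.9% and 37.4% in frame-keeping exons, against 4.29% to 4.60% in those without a copy and skipped alone.

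Of all members, 142 were past 20 points with an interval without 0 in at least 1 comparison, and 29 of these had no copy and were skipped alone, in 29 genes on 14 chromosomes. Of the 29, 18 were coding throughout, 6 partly coding and 5 non-coding, and 21 were annotated cassettes. The read count in the shallowest library lay between 52 and 369. As plain shares of inclusion reads, 8 of their 14 differences past 20 points between homozygote and wild-type were under 20 points, as were 7 of 13 between heterozygote and wild-type and 7 of 15 between homozygote and heterozygote; 0 changed sign. The homozygote stood apart in 5 of them, differing by 20 points in the same direction from both others while these were within 10 points of each other; the heterozygote stood apart in 3 and the wild-type in 4. TCTT was present in 44.8% of the 29 exons, with a median length of 141 bases, and in 40.4% of all members of this class, with a median length of 102.

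**Figure D3:**
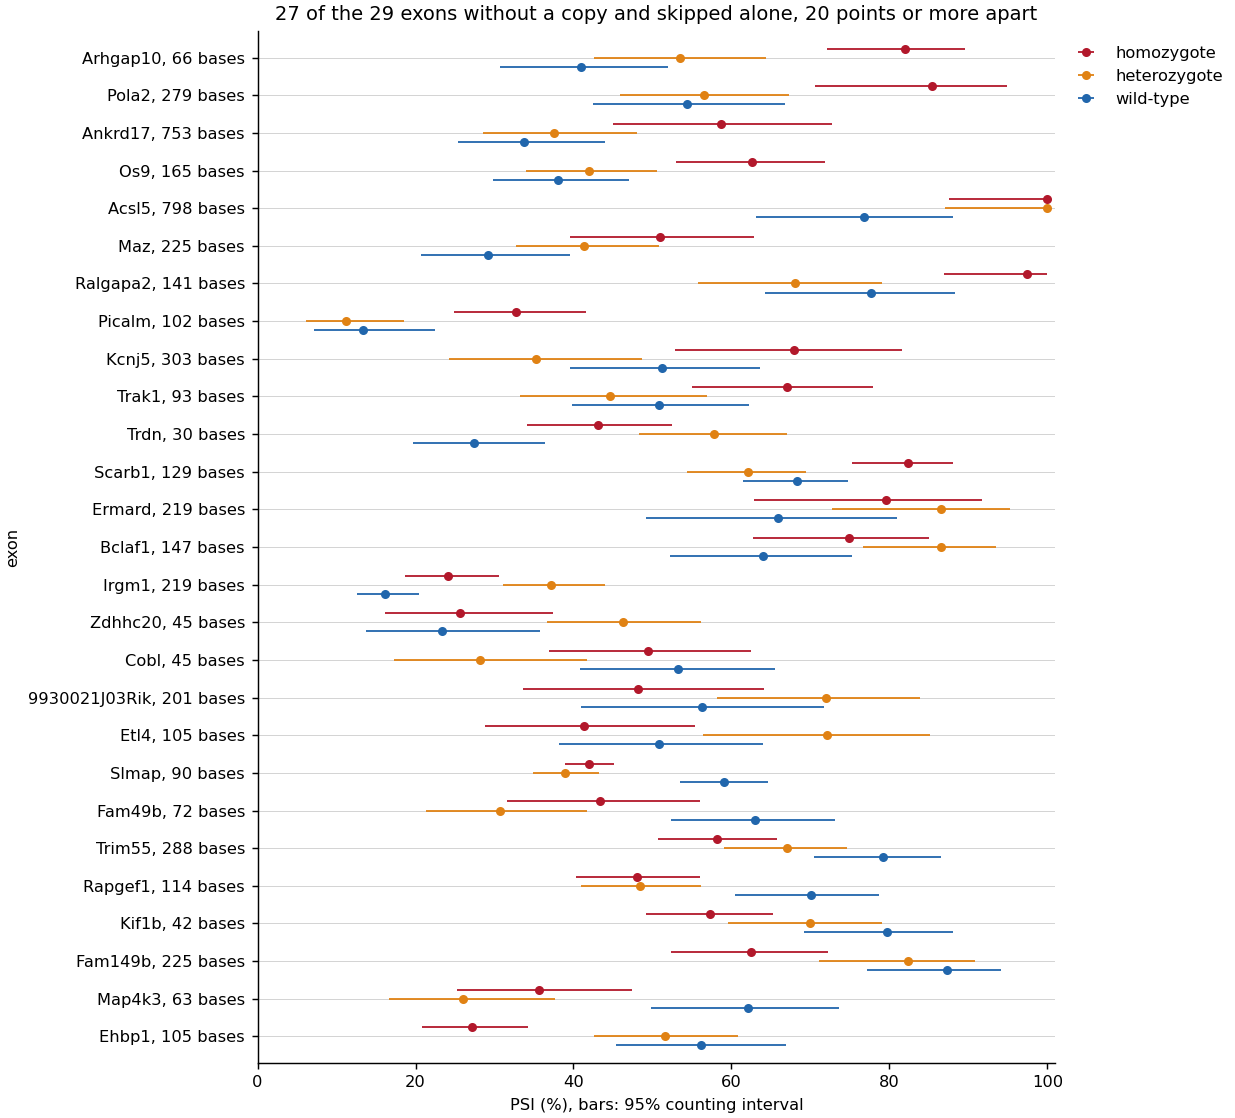
PSI (horizontal axis, percent) of 27 of the 29 exons without a copy and skipped alone that differed by at least 20 points, ordered by homozygote minus wild-type difference; points are the homozygote, the heterozygote and the wild-type, 1 library each, and bars are 95% counting intervals. Arhgap10 is at the top, with 81.9%, 53.4% and 40.9%, and Ehbp1 at the bottom, with 27.1%, 51.6% and 56.1%.

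The largest difference of this class was in Arhgap10, a GTPase-activating protein. Its 66-base exon had 96 inclusion and 14 exclusion reads in the homozygote, 59 and 34 in the heterozygote and 44 and 42 in the wild-type. PSI was 81.9% in the homozygote, 53.4% in the heterozygote and 40.9% in the wild-type, in the order of allele number. The homozygote minus wild-type difference was 41.0 points (26.1 to 53.8) and the homozygote minus heterozygote difference 28.5 points (13.8 to 41.8). The heterozygote minus wild-type difference was smaller, at 12.5 points. Among members past the size limit between homozygote and wild-type with a clear interval, 31 of 59 had such an order, upward or downward. Among frame-shifting exons 60 of 107 had it. Whether such an order follows from allele number was not tested, here or in the exons below. The level of the whole gene was 29.99, 29.7 and 28.6 CPM.

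Os9, a lectin of endoplasmic-reticulum quality control, had a 165-base exon with a PSI of 62.6% in the homozygote, 42% in the heterozygote and 38% in the wild-type. Its homozygote minus wild-type difference was 24.6 points (11.4 to 37.0). The 753-base exon of Ankrd17, an ankyrin-repeat protein, was at 58.7%, 37.5% and 33.8%, a difference of 24.9 points (7.83 to 41.3) that was 12.97 points as the plain share of inclusion reads. In both exons the homozygote stood apart and the other libraries were less than 5 points from each other. The 279-base exon of Pola2, a subunit of DNA polymerase alpha, was at 85.3%, 56.5% and 54.4%; in the transcript used it is a non-coding first exon, and its homozygote minus wild-type difference of 30.9 points was 15.8 points as a plain share.

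Picalm, a clathrin assembly protein, had a 102-base exon at 32.7% in the homozygote, 11.2% in the heterozygote and 13.4% in the wild-type. The homozygote minus heterozygote difference was 21.5 points (10.8 to 31.7), and that against wild-type was 19.3 points. The 141-base exon of Ralgapa2, the catalytic subunit of a GTPase-activating complex for Ral, was at 97.5%, 68.0% and 77.7%, with 1, 18 and 10 exclusion reads, and its homozygote minus heterozygote difference of 29.5 points was 17.1 points as a plain share. Maz, a zinc-finger transcription factor, had a 225-base exon at 50.9%, 41.3% and 29.2%, in the order of allele number. In these exons, too, inclusion was highest in the homozygote.

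The largest decrease of the class between homozygote and wild-type was in Ehbp1, a protein of endocytic traffic. Its 105-base exon had 60 inclusion and 89 exclusion reads in the homozygote, 91 and 47 in the heterozygote and 72 and 31 in the wild-type. PSI was 27.1% in the homozygote, 51.6% in the heterozygote and 56.1% in the wild-type. The homozygote was 29.1 points below the wild-type (interval of the difference -41.5 to -16.1), while the heterozygote minus wild-type difference of -4.52 points had an interval from -18.5 to 9.66.

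The 42-base exon of Kif1b, a kinesin motor that carries mitochondria and vesicles, was at 57.3% in the homozygote, 69.9% in the heterozygote and 79.7% in the wild-type. Trim55, the muscle ubiquitin ligase MuRF2, had a 288-base exon at 58.2%, 67.1% and 79.2%. Both were ordered by allele number, with homozygote minus wild-type differences of -22.4 points (-34.0 to -9.15) and -21.01 points (-31.5 to -9.47). Fam149b had a 225-base exon at 62.5%, 82.3% and 87.2%. As plain shares of inclusion reads, the homozygote minus wild-type differences of Trim55 and Fam149b were -10.7 and -12.9 points.

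In the signalling genes Map4k3 and Rapgef1 an exon was low in both mutants. Map4k3, a kinase upstream of JNK, had a 63-base exon at 35.7% in the homozygote, 26.0% in the heterozygote and 62.1% in the wild-type. The 114-base exon of Rapgef1, an exchange factor for the GTPase Rap1, was at 48.0%, 48.4% and 70.1%, with 65, 69 and 27 exclusion reads. The 90-base exon of Slmap, a sarcolemma-associated protein and described RBM20 target, was at 42%, 39% and 59.1%, and the whole gene was at 170, 113 and 79.4 CPM; how far the gene's level bears on its PSI was not tested. The exon of Acsl5, an acyl-CoA synthetase, was at 100% in both mutants, against 76.8% in the wild-type, which rested on 9 exclusion reads there and was 95.96% as a plain share.

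In the heterozygote, exons of Cobl, an actin nucleator, Zdhhc20, a palmitoyltransferase, and Etl4 stood apart. The 45-base Cobl exon was at 49.5% in the homozygote, 28.2% in the heterozygote and 53.2% in the wild-type. Zdhhc20 was at 25.6%, 46.2% and 23.3%, and Etl4 at 41.4%, 72.2% and 50.8%. Trdn, which encodes triadin of the sarcoplasmic-reticulum calcium release unit, had a 30-base exon that was highest in the heterozygote, at 43.1%, 57.8% and 27.5%. The next 30-base exon of Trdn, also printed above, was at 99.0%, 98.9% and 85.4%.

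The other exons of the class differed between the 2 mutants or between the heterozygote and the wild-type. Scarb1, the HDL receptor, was at 82.3%, 62.0% and 68.4% in homozygote, heterozygote and wild-type for an exon of 129 bases. Kcnj5, a potassium channel subunit, was at 67.9%, 35.3% and 51.3%, and Trak1, an adaptor of mitochondrial transport, at 67.0%, 44.6% and 50.9%. Bclaf1 was at 74.8%, 86.6% and 64.0%, Irgm1 at 24.1%, 37.2% and 16.2%, and Ermard at 79.6%, 86.6% and 65.8%. The heterozygote minus wild-type differences of Bclaf1 and Ermard, 22.5 and 20.7 points, were 14.03 and 10.7 points as plain shares. No copy of this Ermard exon passed the limits, but the gene has the copies 9030025P20Rik and Gm3435, described below. How reads were placed between these genes was not tested, so the Ermard PSI is uncertain too. Fam49b was at 43.4%, 30.7% and 63%, and 9930021J03Rik at 48.1%, 72.0% and 56.2%.

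Exons without a copy that were skipped with neighbours gave further differences in named genes. Tmpo encodes lamina-associated polypeptide 2 of the inner nuclear membrane. Its 96-base exon had 111 inclusion and 90 exclusion reads in the homozygote, 126 and 56 in the heterozygote and 129 and 30 in the wild-type. The PSI values of 41.4%, 56.3% and 71.1% were in the order of allele number, with a homozygote minus wild-type difference of -29.7 points (-40.2 to -18.3) and with the heterozygote in the middle. Bin1, which shapes the T-tubule membrane, had a 72-base exon at 52.9%, 25.9% and 23.0%, with the homozygote 29.9 points above the wild-type (13.9 to 44.9). The second Rapgef1 exon, of 258 bases, was at 54.1%, 33.3% and 34.3%, opposite in direction to the 114-base exon of the same gene, and one of 96 bases was at 9.19%, 7.05% and 21.3%.

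Ppara, a nuclear receptor of fatty-acid metabolism, had a 321-base non-coding first exon at 86.3% in the homozygote, 65.4% in the heterozygote and 52.1% in the wild-type, and its homozygote minus wild-type difference of 34.2 points was 16.5 points as a plain share. The 135-base first exon of Mmaa, of mitochondrial cobalamin metabolism, was at 42.3%, 49.2% and 72.0%. Golga2, a Golgi matrix protein, had an 81-base exon at 86.8%, 100% and 60.6%. The long non-coding RNA Firre had an 87-base exon at 53.2%, 40.1% and 32.2%. Pdlim5, a Z-disc protein, had 132-base and 120-base exons that were low in the heterozygote, at 50.9%, 23.7% and 48.0% and at 39.8%, 27.7% and 49.8%. Acin1, a splicing factor, was at 62.9%, 37.5% and 48.1%. The 63-base exon of Epb41, protein 4.1 of the red-cell membrane skeleton, was at 93.2%, 73.2% and 77.9%; the gene was at 115, 40.5 and 110 CPM, in the order of the blood markers above, whose part in this PSI was not tested.

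Reading the exon-rich genes as wholes, 166 members lay in the 36 genes with 3 or more. In 29 of these genes no member differed by 20 points between homozygote and wild-type. Members of a gene often moved the same way: in 14 of the 36 genes all did so for homozygote against wild-type, and in 24 for heterozygote against wild-type. Exons of 1 run may share skipping reads.

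Lrrfip1 and Lrrfip2 encode related proteins of the leucine-rich-repeat Flightless-interacting family, with long runs of small exons. The 11 Lrrfip1 exons, of 39 to 93 bases, were all higher in both mutants, by 5.50 to 15.7 points in the homozygote and 5.59 to 13.7 points in the heterozygote. By their exclusion counts, 9 of the 11 fell in 1 run of 11 exons. The 14 Lrrfip2 exons were all lower in the heterozygote than in the wild-type, by differences between -20.2 and -4.06 points, while the homozygote minus wild-type differences ran from -10.9 to 2.06 points. A 45-base Lrrfip2 exon in the middle of the run, skipped alone, was at 17.3%, 15.6% and 23.7%, the lowest of the gene's members in every library. Mical2, an actin-oxidising monooxygenase, had 5 exons in 1 run that were all lowest in the heterozygote, between 54.8% and 65.3%, against 69.1% to 83.5% in the homozygote and 62.4% to 88.8% in the wild-type. In the 219-base Mical2 exon the heterozygote minus wild-type difference of -20.5 points was -11.1 points as a plain share of inclusion reads, and in a 126-base one -23.5 points became -15.2.

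**Figure D4:**
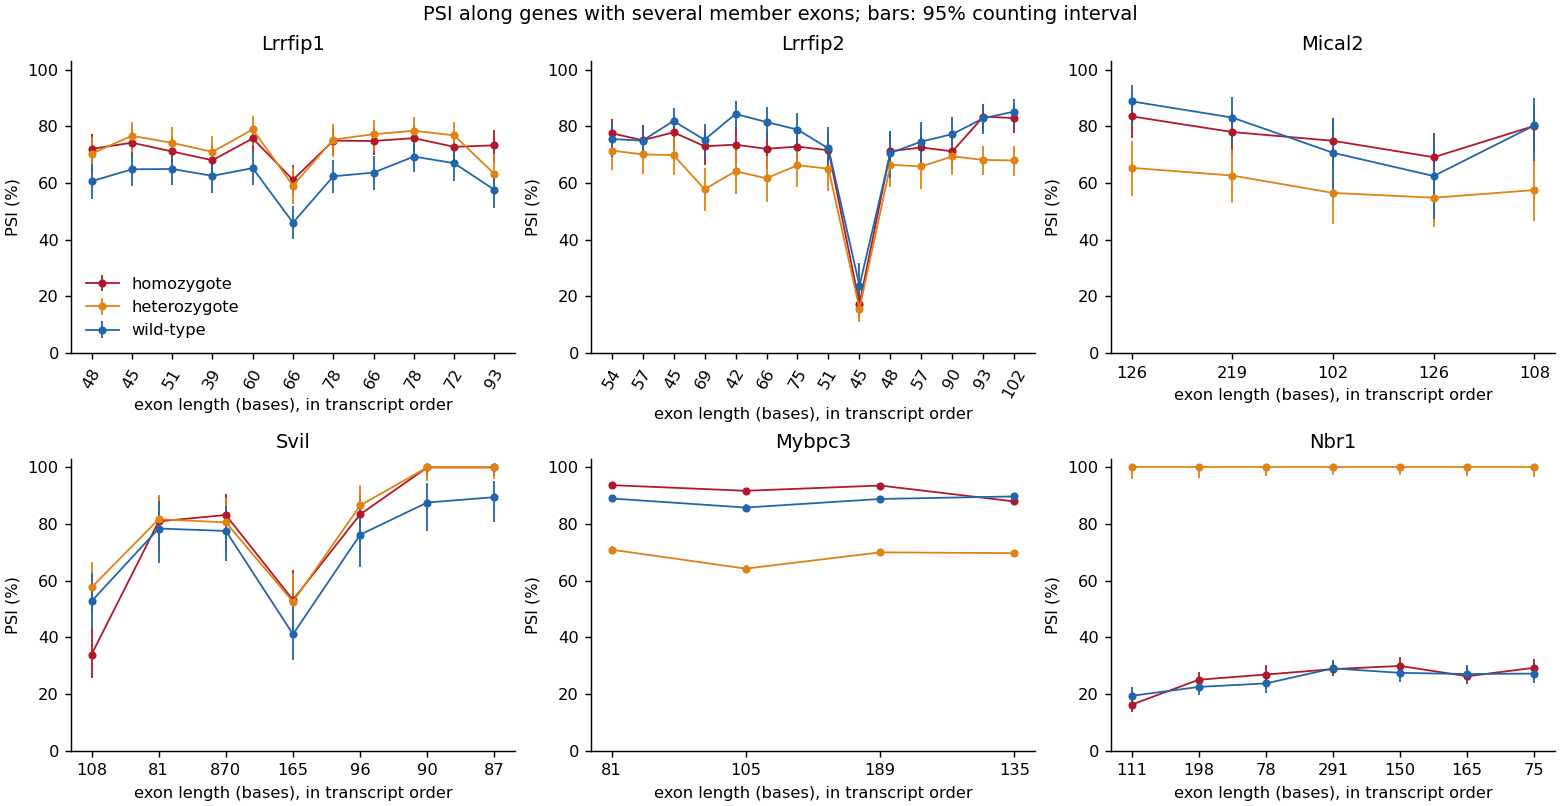
PSI (vertical axis, percent) of the member exons of Lrrfip1, Lrrfip2, Mical2, Svil, Mybpc3 and Nbr1 in transcript order, labelled by exon length in bases, in the homozygote, the heterozygote and the wild-type; bars are 95% counting intervals. In Lrrfip1 the wild-type is lowest at every exon and in Svil at all but the 108-base one, in Lrrfip2, Mical2 and Mybpc3 the heterozygote is lowest, and in Nbr1 the heterozygote is at 100% at all 7 exons.

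Mlip, a lamin-interacting protein of muscle, had members with small differences. Its 5 exons had homozygote minus wild-type differences between -9.03 and 4.18 points. Asph, which makes junctin and aspartyl hydroxylase, had 5 members between -0.07 and 9.21 points. App, the amyloid precursor, had 3 at -8.53 to -1.01 points, and Mapt, tau, 3 at -8.04 to 3.65 points. The 7 Svil exons, of the actin-binding protein supervillin, ranged from -18.8 to 12.4 points, with a 108-base exon at 34.0%, 57.6% and 52.8%.

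In a few genes like exclusion counts ran over many exons. Nbr1, a receptor of selective autophagy, had 7 members with the same 432 exclusion reads in the homozygote, 0 in the heterozygote and 338 in the wild-type. Tmem106a, Rdm1 and Rnd2 had those same counts, and Ifi35 differed from them by 2 reads at most. These 11 members lie between 101456566 and 101630360 on chromosome 11 and share their exclusion counts; PSI was 100% or 99.3% in the heterozygote throughout, against 9.32% to 60.4% in the homozygote and 12.1% to 67.1% in the wild-type. The Nbr1 gene itself was at 67.6, 59.3 and 58.6 CPM.

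Lgals4, galectin-4, an epithelial lectin of the gut, had exons of 33 and 39 bases with 0 exclusion reads in both mutants and 1017 and 1012 in the wild-type. Both exons had a PSI of 100%, 100% and 21.1%. The gene was at 25.3, 56.7 and 51.5 CPM. The other 9 small-intestine markers summed to 0.677 CPM in the homozygote, 0.604 in the heterozygote and 39.9 in the wild-type, with 8 of the 9 more than 3 times higher in the wild-type than in both mutants; their part in the Lgals4 values was not tested. Mybpc3, cardiac myosin-binding protein C, had 4 members with 292 to 608 exclusion reads in the homozygote, 1445 to 1565 in the heterozygote and 348 to 351 in the wild-type, and PSI of 64.3% to 71.0% in the heterozygote, against 88.0% to 93.7% in the homozygote and 85.8% to 89.8% in the wild-type. Gsn, gelsolin, had an 84-base non-coding exon that was at 100%, 100% and 66.2%, with 17 exclusion reads in the wild-type.

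More broadly, 29 members had no exclusion read in either mutant, with a median of 6 in the wild-type, and 80 members had fewer than 10 exclusion reads in the wild-type. The 4 Herc1 exons, with 3 exclusion reads each in the wild-type and 0 in the mutants, are of that kind.

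Of the 15 largest increases in the homozygote over the wild-type, all but the 2 in Lgals4 were in exons with a near-identical copy. The signal-recognition-particle genes Srp54a, Srp54b and Srp54c lie within 1 stretch of chromosome 12, and their 87-base exons are shown so that the likeness of the copies can be read. Capitals mark bases that differ from Srp54a.

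Srp54a exon of 87 bases, chr12:55102468-55102554, plus strand: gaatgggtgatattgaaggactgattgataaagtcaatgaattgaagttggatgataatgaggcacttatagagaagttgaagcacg
Srp54b exon of 87 bases, chr12:55177528-55177614, plus strand: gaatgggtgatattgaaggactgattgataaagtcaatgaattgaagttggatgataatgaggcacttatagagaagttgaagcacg
Srp54c exon of 87 bases, chr12:55252772-55252858, plus strand: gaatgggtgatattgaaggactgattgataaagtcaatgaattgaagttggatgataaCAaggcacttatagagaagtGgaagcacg

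Srp54a and Srp54b were identical over these 87 bases and Srp54c differed at 3. PSI of this exon was 95.9% in the homozygote, 96.7% in the heterozygote and 17.7% in the wild-type in Srp54a, 34.2%, 87.9% and 19.9% in Srp54b, and 48.5%, 86.5% and 81.9% in Srp54c. The 171-base and 96-base exons of Srp54a were at 96.9%, 97.5% and 18.9% and at 98.1%, 98.1% and 22.4%. The Srp54c exons of 105 and 171 bases were at 65.2%, 91.1% and 21.04% and at 54.5%, 90.3% and 85.1%. The neighbouring pair Fam177a and Fam177a2 had 174-base exons at 30.9%, 93.7% and 10.4% and at 58.4%, 79.9% and 11.3%.

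Glutathione transferase genes behaved likewise. The 96-base exon of Gstm3 had the largest difference between homozygote and wild-type of all members, at 99.5% in the homozygote, 57.7% in the heterozygote and 13.8% in the wild-type, and its 111-base exon was at 99.2%, 49.3% and 29.97%, whereas the 111-base exon of Gstm2 was at 56.4%, 66.7% and 81.5%. Selenbp1, a selenium-binding protein, was at 96.8%, 100% and 55.2% for a 93-base exon, and the exon of the same length in Selenbp2 at 20.03%, 44.3% and 51.2%. Tmem181b-ps was at 87.8%, 7.30% and 11.2%, and Dynlt1a, a dynein light chain, at 98.1%, 35.7% and 43.4%. The Ermard copies 9030025P20Rik and Gm3435 were at 65.3%, 40.6% and 12.1% for a 30-base exon of the first, and at 66.1%, 58.2% and 26.4% and 63.9%, 46.0% and 16.7% for exons of 30 and 69 bases of the second. Gm21451, a copy of Loxl2, was at 86.3%, 45.4% and 33.2%.

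Among the exons with a copy that were ordered by allele number, Gm13166 was at 83.2%, 59.7% and 48.5%, and the 189-base and 423-base exons of Ifi205 at 98.2%, 92.9% and 69.8% and at 98.3%, 97.1% and 72.7%. As plain shares of inclusion reads the homozygote minus wild-type differences of these Ifi205 exons, 28.4 and 25.6 points, were 14.2 and 7.66 points. The exons of Vps8 and Slc17a5 had near-identical stretches in 93 and 70 other genes. Vps8 was at 27.9%, 39.1% and 59.7%, Slc17a5 at 36.3%, 48.9% and 61.3% and Zfp384 at 42.8%, 44.0% and 68.0%. The Ccl21b exon on an unplaced scaffold, whose copies were not searched, was at 100%, 99.2% and 69.6%, while the one on chromosome 4 was at 56.9%, 96.9% and 79.3%. H2-T24, a class I histocompatibility gene of a large family although no copy passed the identity limit, was at 9.56%, 7.08% and 76.5%. The 8 Myh6 and 5 Myh7 members, in the 2 cardiac myosin heavy chains, had differences of -10.1 to 4.04 and -8.06 to 17.1 points between homozygote and wild-type, and 11 of the 13 had a copy.

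Of the 142 members past 20 points, 71 lay within 1 Mb of another one in a different gene, in 13 clusters. Of all 784 members 50.5% lay that near to any member in another gene, which is a denser set, so nothing is read from the count itself. The largest cluster held 14 exons of Ifi203, Ifi204, Ifi205, Ifi207 and Ifi211 on chromosome 1, where the 5 Ifi204 exons were at 20.4% to 27.2% in the homozygote, 67.3% to 70.7% in the heterozygote and 20.7% to 23.9% in the wild-type. Next came 11 exons of the Srp54 and Fam177a genes and 11 of the Nbr1 stretch. Of the 29 exons without a copy and skipped alone, 1 was in such a cluster, that of Ermard beside 9030025P20Rik and Gm3435.

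Known RBM20 targets were described as a list. From 46 names, 18 genes had 53 members, of which 0 differed by 20 points between homozygote and wild-type, 4 (7.55%) between heterozygote and wild-type and 2 (3.77%) between homozygote and heterozygote. The shares over all members were 7.91%, 12.6% and 11.7%, and over members without a copy 4.03%, 7.29% and 6.98%. The median absolute difference of these 53 was 5.50 points for homozygote against wild-type, against 6.46 points for all 784. The rule for members left out Ttn, exons under the length limit and exons almost always skipped in the wild-type. An exon that RBM20 represses almost fully in the wild-type heart could therefore not be a member. For that reason these counts cannot show how far RBM20 targets as a whole differed between genotypes. The study had examined Ldb3, a Z-disc protein, on these samples, so its place in the list is not independent. Its only member, of 186 bases, had 860 inclusion and 144 exclusion reads in the homozygote, 733 and 109 in the heterozygote and 869 and 134 in the wild-type. PSI was 71.0%, 73.4% and 72.6%, and the homozygote minus wild-type difference of -1.67 points had an interval from -6.89 to 3.58. Camk2d and Ryr2 had no member, and the extra Ryr2 exon that the study reported is shorter than the length limit. The study reported, with RT-PCR, abnormal splicing of Ldb3, Camk2d and Ryr2 in the homozygote, in Ldb3 by inclusion of exons of the skeletal isoform. For a further Ldb3 exon, its RT-PCR gave no significant difference in inclusion among the genotypes. How this Ldb3 member relates to those exons was not examined. Its small difference therefore does not describe the splicing of Ldb3 as a whole. Map4, a microtubule-binding protein, had exons of 93 and 114 bases at 58.0%, 62.2% and 75.1% and at 30.1%, 38.3% and 43.5%, both lowest in the homozygote, and Lmo7 a 57-base exon at 57.4%, 59.4% and 43.1%.

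**Figure D5:**
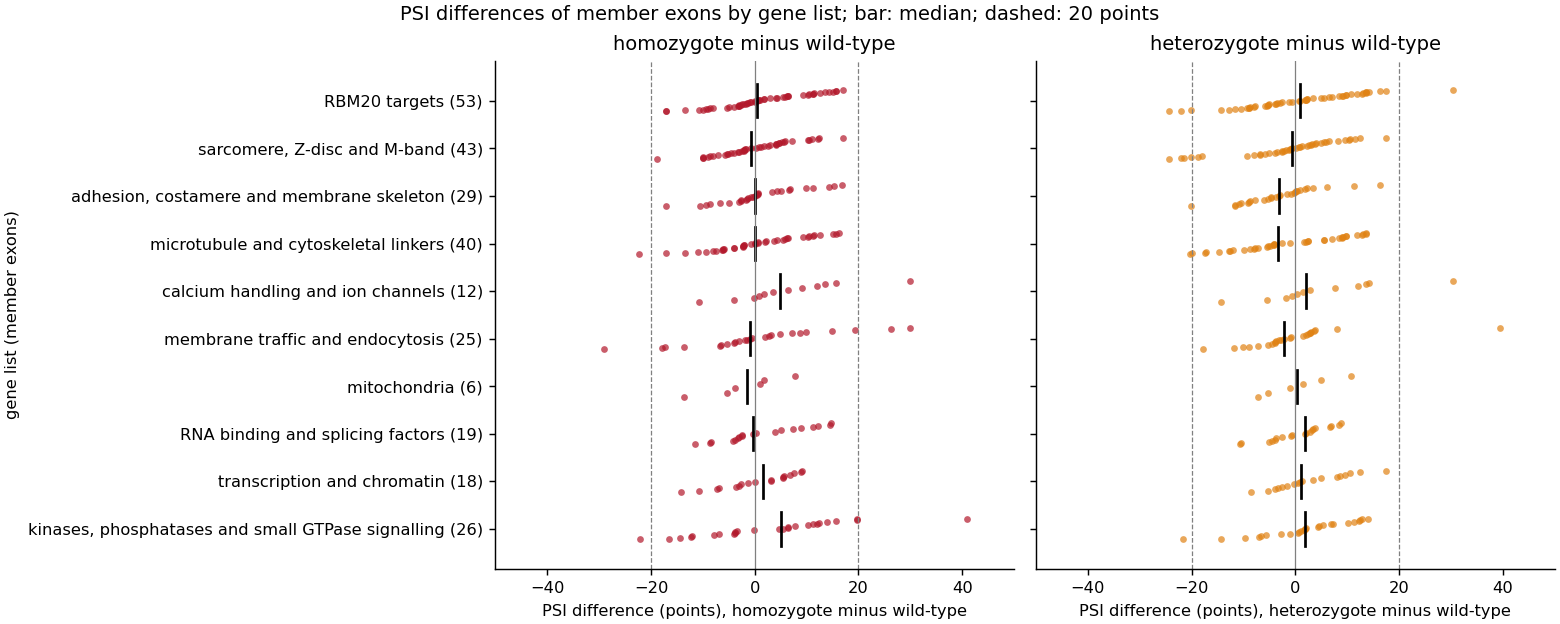
Differences in PSI (horizontal axis, points) of the member exons of 10 gene lists, homozygote minus wild-type and heterozygote minus wild-type; each point is an exon, the bar is the list's median, dashed lines mark 20 points and the number of exons is in parentheses. Medians lie between -1.40 and 5.10 points in the homozygote panel, and exons outside the lines there include those of Arhgap10, Bin1, Golga2 and Ehbp1.

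The lists were chosen sets of gene names and did not hold every gene of a kind. Map4k3, Kcnj5 and Trim55, described above, were in none of them, so the counts below cover listed genes only. Within these genes, too, exons almost always skipped in the wild-type were outside the rule for members. Listed sarcomere, Z-disc and M-band genes had 43 members in 14 genes, of which 0 were past 20 points between homozygote and wild-type. In the heterozygote 4 (9.30%) were lower than in the wild-type, 2 each in Mybpc3 and Pdlim5. Between homozygote and heterozygote 6 of the 43 (13.95%) were past 20 points, against 11.7% of all members, and 11 of the 43 had a copy. Cardiac troponin T, Tnnt2, was at 82.9%, 83.5% and 86.1% for a 78-base exon and at 78.1%, 77.0% and 80.5% for one of 36 bases. Ablim3 was at 68.6%, 58.9% and 57.6%. Of 29 members in adhesion and membrane-skeleton genes, 0 were past 20 points in the homozygote against the wild-type. The largest increase was in Tns1, tensin, at 81.8%, 71.0% and 64.9% for a 39-base exon.

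Microtubule and cytoskeletal linker genes had 40 members, of which Kif1b alone was past 20 points in the homozygote. Mprip, a myosin-phosphatase partner, was at 91.5%, 80.9% and 75.3%. Listed calcium-handling and channel genes had 12 members in 4 genes, with a median difference of 4.97 points and with Bin1 past 20 points. The 192-base exon of Atp2b1, a plasma-membrane calcium pump, was at 100%, 100% and 88.0%. Membrane-traffic genes had 25 members, 2 higher (Bin1 and Golga2) and 1 lower (Ehbp1). Numb, an endocytic adaptor, was at 27.9%, 27.9% and 45.7%. Listed kinase, phosphatase and GTPase-signalling genes had 26 members with the largest median absolute difference of the 10 lists, 10.7 points. The 4 Herc1 exons described above, with 3 exclusion reads each in the wild-type, are among the 26. They are not separate observations, and the median without them was not computed, so the rank of this list is uncertain. Among these 26, Arhgap10 was higher and Rapgef1 lower. Tbc1d4, a Rab GTPase-activating protein, was at 96.4%, 85.1% and 80.8%.

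The remaining lists had no member past 20 points against wild-type in either mutant. In the 19 members of RNA-binding genes, Pum2 was at 42.05%, 31% and 27.6%, Celf2 at 90.01%, 86.3% and 77.8% and Mbnl1 at 23.8%, 14.6% and 12.6%. In the 18 members of transcription and chromatin genes, Bbx was at 24.5%, 37.2% and 38.8% and Yap1 at 38.4%, 45.8% and 49.1%. The 6 mitochondrial members, in Chchd6, Dnm1l and Opa1, differed by -13.7 to 7.74 points; a 33-base exon of Dnm1l, the fission GTPase, was at 15.1%, 27.8% and 28.8%.

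The sizes of the differences also varied with depth and exon length. In the 196 members with the fewest reads the median absolute homozygote minus wild-type difference was 8.66 points, and in the 196 deepest 4.91 points. The share past 20 points was larger in the deepest, at 10.7% against 7.65% in those with the fewest reads. For heterozygote against wild-type these shares were 15.3% and 11.7%. Members of at most 60 bases had a median absolute difference of 5.50 points and those of over 200 bases 7.92 points. Among 222 members with wild-type PSI under 30%, 19 were higher and 0 lower by 20 points in the homozygote, and among the 313 at 70% or more, 6 were higher and 11 lower. A PSI near an end of the scale leaves little room in that direction.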

How the data were processed

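Hearts of 12-week-old homozygote, heterozygote and wild-type mice were compared, with 1 library each. For every exonic part, the authors deposited whole-number counts of reads that include it and of reads that skip it, and PSI as a fraction. Submitters' processing notes name cutadapt 1.1, Trimmomatic 0.32, TopHat2 2.0.14, Bowtie 1.1.1 and GRCm38; the counting program and annotation release are not given in the sources used here. PSI recomputed from the counts, with 129 read positions for a skipping read and that number plus the exon length for an inclusion read, differed from the deposited fraction by at most 0.0001 points. The 3 PSI columns for 36 weeks match no sample record and were not used, nor were 2 columns of genotype differences made by the authors.

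Differences are in points of PSI, with a size rule of 20 and Clopper-Pearson intervals combined by Newcombe's method. No p-value was computed, and the interval code was tested on simulated data. Exons were annotated with GENCODE M21, and copies were found with blastn 2.17.0. The copy limits, the classes by shared skipping reads and the cluster distance were chosen after seeing the data. The members and gene lists were chosen with earlier results of these data known. Exons named are among those past 20 points in any comparison with an interval without 0 (the 15 largest increases and decreases in the homozygote, those in the order of allele number, and examples), members of the study's genes, examples from genes with 3 or more members, and up to 4 of each list, largest homozygote difference first. Exons of a few genes are not reported here by name, and 2 such exons are left out of the plot of single exons. Analyses used Python 3.11.15, pandas 2.3.3 and scipy 1.17.1.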

Additional observations from a re-analysis of the deposited data

How the results depend on the processing

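Counts are given as higher and lower by the size rule, for homozygote against wild-type, heterozygote against wild-type and homozygote against heterozygote in that order. At 20 points they were 44 and 18, 68 and 31, and 46 and 46. A size of 10 points gave 163 and 88, 175 and 92, and 118 and 130; 30 points gave 24 and 5, 42 and 11, and 13 and 34. With at least 100 reads (481 exons) they were 25 and 12, 45 and 18, and 21 and 35, with median absolute differences of 5.38, 5.52 and 4.98 points. With at least 20 reads (1279 exons) they were 110 and 49, 146 and 73, and 96 and 81, and the medians against wild-type were 8.17 and 8.99. Plain read shares (764 exons) left 16 lower in the heterozygote than the wild-type and 28 higher in the homozygote than the heterozygote, with a median of 5.88 for homozygote against wild-type. Choosing by heterozygote PSI (756 exons) gave 25 higher in the homozygote and 36 in the heterozygote than the wild-type, and 26 lower in the homozygote than the heterozygote, with medians of 5.15 for homozygote against wild-type and 6.71 for homozygote against heterozygote. With 1 exon per gene there were 29 higher, then 39 and 15, then 29 and 25. A wild-type PSI of 20% to 80% (449 exons) left 18 lower in the heterozygote, and medians of 7.05 for homozygote against wild-type and 7.02 for homozygote against heterozygote. No count moved by over 1.5 times when intervals had to leave out 0 or overlapping genes were left out. The differences of the 142 single exons in the 3 comparisons were recomputed as plain read shares. Of these, 310 moved by less than the mean distance from the difference to the ends of its counting interval, and 116 did not. Of differences past 20 points with an interval without 0, 19 of 59, 32 of 97 and 29 of 92 were under 20 points as plain shares, 14, 26 and 22 of the 59, 97 and 92 shrank by over 1.5 times, and 0 changed sign.

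The following were chosen after seeing the data. Without copies, counts were 16 and 10, 29 and 18, and 27 and 18, with a homozygote against heterozygote median of 5.25. For exons skipped alone they were 8 and 8, 11 and 5, and 10 and 6, with medians of 4.69 for heterozygote against wild-type and 5.24 for homozygote against heterozygote. For exons without a copy and skipped alone they were 8 and 7, 9 and 5, and 10 and 5, with medians of 4.83 and 5.25. For annotated cassettes they were 8 and 6, 15 and 11, and 19 and 10, with a heterozygote against wild-type median of 5.26. 

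With 1 library per genotype, no library could be left out and no spread between mice could be had. No paired analysis was possible because each genotype has a single library. The cause of each shift was not tested, beyond the fewer exons that a stricter rule leaves. A median interval width of 18.7 points limits what small differences show.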
